A study of Rattus norvegicus with 35 samples.

Results

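Multidrug pumps and epoxide hydrolases were represented on the arrays by 5 genes, Abcb1b, Abcb1a, Abcb4, Ephx1 and Ephx2, of the 4736 genes that have a single symbol. They were found by gene symbol and were read by 8 of the 8740 probe-sets tested. Abcb1b, Abcb1a, Abcb4 and Ephx1 have 1 probe-set each (M81855_at, S66618_at, L15079mRNA_s_at and M26125_at), and Ephx2 has 4 (rc_AI104882_s_at, X60328_g_at, X65083cds_at and X60328_at). The genes were chosen by their names with results of these arrays in view, and selected on, among other values, the rise of Abcb1b in fibroblasts after UV. All UV changes of the 8 probe-sets are therefore given as a description, with no test.

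RNA came from ventricles of neonatal rats, cultured as cardiac myocyte enriched cells (CM) or as fibroblasts (FB), and was hybridised to 35 Affymetrix rat genome arrays, 1 array for each RNA sample. Cells were given X-rays at 8.5 Gy (IR) or UVC at 10 J/m2 (UV), both with RNA taken after 24 h, or were stretched cyclically for 24 h (MS) on collagen coated plates. Each was set against controls of its own experiments, sham-irradiated or kept on the same plates without stretch. Each treated and control group has 3 arrays, apart from the CM UV controls, which number 2. CM cultures of the IR and UV experiments were separated by elutriation after the 24 h, those of the MS experiments were not, and FB were subcultured and not elutriated. Neither population is pure by this procedure, so each array reads a mixture of cells, and the FB went through more days of culture and another serum than the CM.

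The Abcb genes encode membrane transporters that use ATP. Abcb1a and Abcb1b encode the rodent P-glycoproteins, which carry hydrophobic drugs out of cells, and Abcb4 moves phosphatidylcholine across the membrane of liver cells into bile. Epoxide hydrolases add water to epoxides: the microsomal enzyme Ephx1 acts on reactive epoxides formed from foreign compounds, whereas the soluble enzyme Ephx2 acts mainly on epoxides of fatty acids, among them products of arachidonic acid that act on vessels and heart muscle.

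The labels were checked against marker genes. Over 16 cardiomyocyte marker genes, the summed normalised intensity lay between 40227 and 71635 on CM control arrays, against 4446 to 28362 on FB control arrays. Over 14 fibroblast marker genes it lay between 18290 and 43426 on CM control arrays, against 44707 to 49360 on FB control arrays. CM arrays thus also held fibroblast transcripts, and FB arrays some myocyte transcripts. Experiment 3 of FB IR stood apart: its arrays correlated with those of experiments 1 and 2 at 0.922 to 0.931 (Spearman, across probe-sets), against 0.960 to 0.969 among the arrays of experiments 1 and 2. In that experiment 189 probe-sets were at least 4-fold higher and 75 at least 4-fold lower than in experiments 1 and 2 averaged over both arms, with Ass1, Ccl5 and Lcn2 in the lead (named after their values were seen). The FB IR changes, the IR differences between populations and the IR control differences of the members are given with and without these arrays where they changed by over 0.1 on the log2 scale or passed the test.

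Abcb4, Abcb1b and Abcb1a lie next to each other on chromosome 4 in the RefSeq gene table of the rat, and Ephx1 lies on chromosome 13. Promoter sequences of 250 bases up to the annotated start were taken from RefSeq (GRCr8, all on the minus strand, written 5′ to 3′) for Abcb1b and Ephx1, which changed after radiation, and for Abcb1a, the close relative of Abcb1b that did not pass the test in any treated comparison. Ephx1 has 2 annotated starts, each with a window. Capitals mark matches to the CCAAT box (letters CCAAT), the GC box (letters GGGCGG), the AP-1 site (letters TGANTCA), the core of the antioxidant response element (letters TGACNNNGC), the p53 half-site or the NF-kB site, each searched on both strands. A match describes the letters and is not a binding site. The windows are Abcb1b at chr4:26280030-26280279, Abcb1a at chr4:26397649-26397898, and Ephx1 at chr13:95275853-95276102 (window 1) and chr13:95263118-95263367 (window 2).
Abcb1b: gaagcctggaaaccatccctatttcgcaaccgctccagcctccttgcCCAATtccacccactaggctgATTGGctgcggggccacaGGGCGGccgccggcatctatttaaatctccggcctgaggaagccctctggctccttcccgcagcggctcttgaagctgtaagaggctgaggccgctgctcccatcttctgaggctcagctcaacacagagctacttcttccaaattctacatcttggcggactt
Abcb1a: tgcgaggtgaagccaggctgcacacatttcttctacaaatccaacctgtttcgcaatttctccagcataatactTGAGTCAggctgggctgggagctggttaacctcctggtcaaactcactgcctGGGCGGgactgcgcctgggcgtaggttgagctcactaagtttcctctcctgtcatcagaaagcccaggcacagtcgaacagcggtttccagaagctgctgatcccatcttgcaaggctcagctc
Ephx1 window 1: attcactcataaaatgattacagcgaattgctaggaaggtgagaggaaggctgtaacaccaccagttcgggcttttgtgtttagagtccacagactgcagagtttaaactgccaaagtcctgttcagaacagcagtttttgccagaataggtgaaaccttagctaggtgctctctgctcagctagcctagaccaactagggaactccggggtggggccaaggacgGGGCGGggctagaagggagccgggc
Ephx1 window 2: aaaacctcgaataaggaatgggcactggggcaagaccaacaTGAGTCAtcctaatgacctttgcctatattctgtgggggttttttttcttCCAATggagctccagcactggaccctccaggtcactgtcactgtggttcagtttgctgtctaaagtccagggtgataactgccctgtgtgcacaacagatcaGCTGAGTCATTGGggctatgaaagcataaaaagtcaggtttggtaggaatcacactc
The Abcb1b window holds 2 CCAAT boxes, which begin 203 and 182 bases before the start, and a GC box at 164 bases. The Abcb1a window holds a GC box at 124 bases and an AP-1 site at 176 bases, and no CCAAT. In Ephx1, window 1 holds a GC box at 25 bases. Window 2 holds 2 CCAAT boxes, 2 AP-1 sites and 1 core of the antioxidant response element that overlaps the second AP-1 site by 7 bases and a CCAAT by 1 base. These letters are common: of 33469 such windows, 34.0% hold CCAAT, 30.5% the GC box, 6.34% the AP-1 site, 10.1% the element core, 6.64% the p53 half-site and 3.54% the NF-kB site. Neither the p53 half-site nor the NF-kB site matched in the windows shown. Aligned end to end, the Abcb1b and Abcb1a windows were identical in 49.2% of columns, within the 45.2% to 50.7% found over all pairs of the 5 windows of these genes. Their longest shared run was 11 bases, against 8 to 10 in the other pairs. It ends the Abcb1a window and lies farther from the start in the Abcb1b window, so an end-to-end alignment can miss it. Whether the probes of M81855_at and S66618_at also bind the transcript of the other P-glycoprotein gene was not tested, and the suffix _s marks probe-sets that may share probes with similar transcripts.

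After IR, Abcb1b and Ephx1 rose in both populations. In CM, Ephx1 reached a mean normalised intensity of 413 ± 61.0, against 91.9 ± 23.1 in sham-irradiated CM, and Abcb1b reached 113 ± 11.8, against 31.3 ± 2.51 (SD, n = 3 each). Of the 8 probe-sets, M81855_at and M26125_at passed the test in CM and also in FB, where they were higher (2 of 8 each), whereas 0.732% of all probe-sets passed in CM and 0.0801% in FB (limma, adjusted p under 0.05). None of the other 6 probe-sets passed in either population after IR.

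Abcb1b read 109, 126 and 103 on the 3 CM IR arrays, against 29.1, 30.9 and 34.0 on their controls. All IR arrays lay above all control arrays. The log2 change was 1.85 (SE 0.19), a 3.60-fold rise (limma, adjusted p = 7.87e-04), and the 3 pairs of treated and control arrays gave 1.91, 2.03 and 1.61. Without the pairing by experiment the change is the same, but its SE was 0.60 and it no longer passed (limma, adjusted p = 0.376). The fit shares its spread over all groups, and without the pairing that spread also holds the level shift of FB IR experiment 3. The call was also lost when experiment 1 or 2 of every group was left out (adjusted p = 0.0604 and 0.0697).

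In FB, Abcb1b read 158, 192 and 1096 after IR, against 74.4, 57.5 and 578 in the controls. The arrays of experiment 3 are far above the others in both arms, so the groups overlap, while the treated array is above its own control in 3 of 3 pairs. The log2 change was 1.25 (SE 0.19, limma adjusted p = 0.0386), with 1.09, 1.74 and 0.92 in the pairs. Without FB IR experiment 3 it was 1.41 (SE 0.23, adjusted p = 0.0401). Averaged over both arms, Abcb1b was 7.46-fold higher in experiment 3 than in experiments 1 and 2, whereas Ephx1 differed by -0.25 on the log2 scale. The call did not hold without the pairing by experiment (adjusted p = 1) or without experiment 1, 2 or 3 of every group (0.429, 0.492 and 0.164).

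Ephx1 had the smallest p of all probe-sets in both IR comparisons. It read 483, 372 and 384 on CM IR arrays, against 71.0, 88.0 and 117 on their controls, and 906, 999 and 754 on FB IR arrays, against 348, 305 and 291 on their controls. The groups do not overlap in either population. The log2 change was 2.19 (SE 0.15) in CM, a 4.55-fold rise (limma, adjusted p = 3.31e-05), and 1.49 (SE 0.15) in FB, a 2.81-fold rise (adjusted p = 0.00248). All 3 pairs were higher in each population, between 1.72 and 2.77 in CM and between 1.37 and 1.71 in FB. The FB change was 1.55 (adjusted p = 0.00624) without FB IR experiment 3. Without experiment 2 of every group the adjusted p was 0.0532 in CM and 0.422 in FB, and without experiment 1 it was 0.0520 in FB.

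Scan and array lot were known for the CM IR arrays: treated array 3 was read in another scan than the other 5, and treated arrays 1 and 3 are of another lot than the other 4. With the scan as a block, the log2 change was 1.97 for Abcb1b (limma, adjusted p = 0.00450) and 2.42 for Ephx1 (2.26e-05). With the lot as a block it was 2.03 (adjusted p = 0.0142) and 2.08 (0.00159), which is the change in pair 2, the pair that lies within 1 lot.

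**Figure D1:**
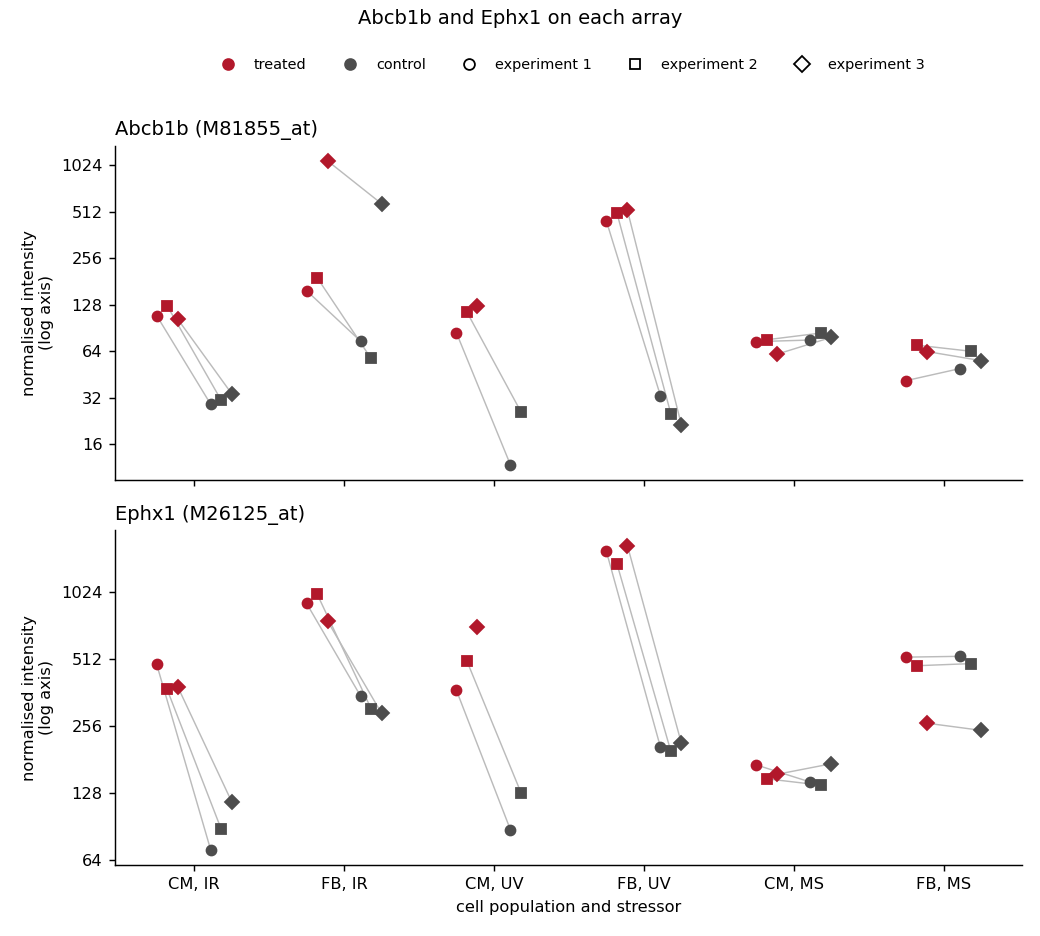
Normalised intensity (log axis) of Abcb1b (top) and Ephx1 (bottom) on each array, treated arrays left of their controls, with lines that join the arrays of 1 experiment. After IR and UV every treated array with a control is above it for both genes, after MS the arms overlap, and Abcb1b in FB IR experiment 3 reads 1096 in the treated array and 578 in the control.

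The other members gave no call after IR. Abcb1a, the second P-glycoprotein gene, read 9.62, 6.88 and 6.88 in CM after IR, against 10.4, 16.9 and 22.5 in the controls. The value 6.88 is the floor, the lowest an array can give here, so this difference is bounded by it. The log2 change was -1.04 (SE 0.36, 95% interval -1.82 to -0.25) and missed the threshold over all probe-sets (limma, adjusted p = 0.278). In FB the change of Abcb1a was 0.10 (interval -0.68 to 0.88), and -0.01 without FB IR experiment 3. Abcb4 read 60.9, 69.7 and 74.8 in CM after IR, against 34.9, 47.2 and 96.3, groups that overlap. It changed by 0.33 in CM (interval -0.77 to 1.44) and by 0.55 in FB (-0.55 to 1.65). The FB change of Abcb4 was 0.98 without FB IR experiment 3 (SE 0.61, limma adjusted p = 0.718).

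Ephx2 stayed apart from Ephx1 in its best measured probe-set. On rc_AI104882_s_at it read 79.5, 96.7 and 93.1 in CM after IR, against 85.5, 84.7 and 103 in the controls, with a log2 change of -0.02 (95% interval -0.33 to 0.29). In FB it read 176, 101 and 149, against 164, 130.3 and 109.6, with a change of 0.06 (-0.24 to 0.37). The FB change was -0.13 (SE 0.15) without FB IR experiment 3. Both pairs of groups overlap. The intervals lie below the change of Ephx1 in the same population. X60328_at, at or near the floor on most arrays, changed by 0.38 in CM (SE 0.12, limma adjusted p = 0.231), and the other 2 probe-sets of Ephx2 changed by 0.18 and 0.21 in CM and by -0.06 and -0.33 in FB, with SEs of 0.25 to 0.48. Without FB IR experiment 3 the FB changes of X60328_g_at, X65083cds_at and X60328_at were -0.15, -0.66 and 0.26, and none passed.

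The IR changes of Abcb1b and Ephx1 were larger in CM than in FB by 0.60 (SE 0.27, 95% interval 0.00 to 1.19) and 0.70 (SE 0.21, 0.25 to 1.15) on the log2 scale. Neither difference passed over all probe-sets (limma, adjusted p = 0.567 and 0.386), nor did that of any other member. They were, without FB IR experiment 3, 0.43 (SE 0.30, adjusted p = 0.693) and 0.64 (SE 0.24, adjusted p = 0.441), and again no member passed. Those of Abcb4, rc_AI104882_s_at and X65083cds_at were -0.22, -0.08 and 0.54 with that experiment and -0.65, 0.11 and 0.88 without it, and that of Abcb1a was -1.14 and -1.03. Of all probe-sets 0.0686% passed this test of the difference, and 757 had an unadjusted p under 0.05, 3 of them members. The CM and FB arrays of IR also differed in the scale of the deposited values and, where known, in scan. The part of these in the difference was not tested.

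After UV, the same genes were higher, and more so in FB. Abcb1b read 446, 504 and 525 in FB after UV, against 33.0, 25.1 and 21.3 in the controls, a log2 change of 4.23 (SE 0.19) and the 4th largest rise of the 8740 probe-sets. In CM it read 84.0, 115 and 125, against 11.7 and 25.9, a change of 2.49 (SE 0.24). UV and control arrays do not overlap in either population. The CM UV array 3 has no control of its own and does not enter the CM UV change, which rests on 2 pairs (2.84 and 2.15).

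Ephx1 read 1549, 1366 and 1646 in FB after UV, against 205, 196 and 214 in the controls, a log2 change of 2.89 (SE 0.15), or 7.40-fold. In CM it read 368, 498 and 708, against 87.2 and 128, a change of 2.02 (SE 0.18), or 4.05-fold. Here too the groups do not overlap. Counted for completeness, 2 of the 8 probe-sets passed in CM and 2 in FB, where 16.8% and 22.9% of all probe-sets did, and nothing is read from this count, as UV values were used to choose the genes.

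The change after UV was smaller in CM than in FB by 1.74 for Abcb1b (CM minus FB -1.74, SE 0.30) and by 0.87 for Ephx1 (CM minus FB -0.87, SE 0.23), on the log2 scale. Of all probe-sets 6.35% passed the test of this difference, and 2 of the 8 did, again with nothing read from the count. The sign of the difference between populations for these genes was thus negative after UV, and positive but not past the threshold after IR.

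The remaining members after UV are given by their values. Abcb1a changed by -0.19 (SE 0.44) in CM and by -0.29 (SE 0.36) in FB, and Abcb4 by -0.60 (SE 0.62) and -0.61 (SE 0.51). Ephx2 on rc_AI104882_s_at changed by -0.17 (SE 0.17) in CM and by -0.30 (SE 0.14) in FB. Its X60328_g_at read 28.8, 67.6 and 36.0 in CM after UV, against 16.2 and 20.3 in the controls, a change of 1.28 (SE 0.59), and changed by -0.50 (SE 0.48) in FB. The changes of the 4 probe-sets of Ephx2 in CM after UV thus ran between -0.28 and 1.28.

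**Figure D2:**
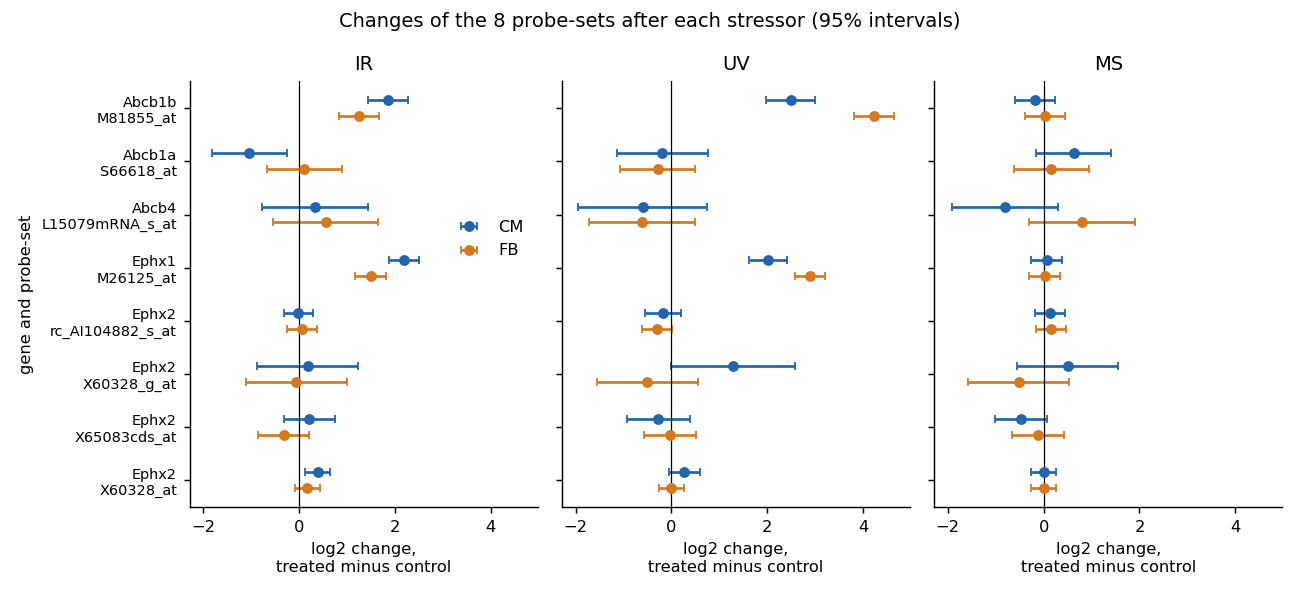
Log2 change, treated minus control, of each of the 8 probe-sets after IR, UV and MS, with 95% intervals from the fit, for CM and FB. Abcb1b and Ephx1 stand clear of 0 after IR and UV in both populations, the CM IR intervals of Abcb1a and X60328_at also miss 0 although neither passed over all probe-sets, and all intervals after MS include 0.

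After MS, no member passed the test in CM or in FB. Abcb1b read 73.8, 75.9 and 61.3 in stretched CM, against 75.6, 83.9 and 78.7 in the controls, a log2 change of -0.18 (95% interval -0.60 to 0.24). In FB it read 41.3, 70.1 and 63.6, against 49.4, 64.0 and 55.6, a change of 0.02 (interval -0.40 to 0.44). The arms overlap in both populations. Ephx1 read 170.4, 148 and 155 in stretched CM, against 143, 138 and 173, and 519.6, 475 and 262 in stretched FB, against 524, 486 and 244. Experiment 3 of FB is the lowest in both arms, and the arms overlap. Ephx1 changed by 0.06 in CM (interval -0.25 to 0.38) and by 0.02 in FB (-0.30 to 0.34). The upper bounds lie below the IR changes of the same genes and populations. Abcb4 read 32.0, 27.1 and 40.5 in stretched CM, against 71.2, 43.8 and 59.3, and all stretched arrays lay below all controls. Its change of -0.80 (SE 0.51) in CM and of 0.80 (SE 0.51) in FB were the largest of the 8 probe-sets in size, and neither passed (limma, adjusted p = 1 each). By limma 0% of all probe-sets passed in CM and 0% in FB, 414 and 468 had an unadjusted p under 0.05, and none of the 8 did. For the difference between the populations the share was also 0%, with 365 probe-sets, 1 of them a member (Abcb4, -1.60, SE 0.72), at an unadjusted p under 0.05.

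Control arrays of the populations were compared within each experiment type, to ask where these genes are read more strongly without a stressor. In bulk samples such as these, fewer cells of a type and less RNA per cell cannot be told apart, nor can the population be told apart from its culture history. Of 14 endothelial probe-sets 7, 4 and 4 were higher in CM in the IR, UV and MS controls, and 0, 0 and 1 lower. Of 13 mitosis probe-sets 10, 10 and 2 were higher and 0 lower in each. The part of these shifts in the differences of the members was not tested. Ephx1 was lower in CM than in FB in all 3 sets of controls, and Abcb4 was higher in CM in 2 of them. Of the 8 probe-sets, 4 passed among the IR controls (all lower in CM), 2 among the UV controls and 2 among the MS controls (1 higher and 1 lower in CM in each), where 25.2%, 22.5% and 22.5% of all probe-sets passed.

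Ephx1 read 71.0 to 117 in CM controls of IR, against 291 to 348 in FB controls, a log2 difference of -1.80 (SE 0.27, limma adjusted p = 3.88e-04), and -1.86 (adjusted p = 0.00110) without FB IR experiment 3. In the MS controls it read 138 to 173 in CM, against 244 to 524 in FB (-1.40, SE 0.27, adjusted p = 0.00328), and in the UV controls 87.2 and 128 in CM, against 196 to 214 in FB (-0.96, SE 0.30, adjusted p = 0.0370). CM and FB do not overlap in any of these sets. The UV and MS calls are the less firm ones: each was lost when experiment 1 or 2 of every group was left out (adjusted p between 0.0916 and 0.390).

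Abcb4 read 138 and 127 in CM controls of UV, against 45.1, 7.19 and 9.14 in FB controls, a difference of 3.20 (SE 0.87, limma adjusted p = 0.0192). In the MS controls it read 71.2, 43.8 and 59.3 in CM, against 6.88, 19.4 and 6.88 in FB (2.55, SE 0.78, adjusted p = 0.0342). In the IR controls it read 34.9, 47.2 and 96.3 in CM, against 6.88, 6.88 and 35.2 in FB, a difference of 2.19 that missed the threshold (SE 0.78, adjusted p = 0.0587). The populations overlap by 1 array in the IR controls and not in the others. On 4 FB control arrays Abcb4 lies at the floor, so those differences are bounded by it. With a higher floor of 24.5 the UV difference was 2.14 and the MS difference 1.22, both still past the threshold. Both calls were lost when any 1 experiment of every group was left out (adjusted p between 0.0605 and 0.264). Without FB IR experiment 3 the IR difference was 2.98 (adjusted p = 0.0112).

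Abcb1b was lower in CM among the IR controls only by this test: 29.1, 30.9 and 34.0 in CM, against 74.4, 57.5 and 578 in FB, a difference of -2.11 (SE 0.66, limma adjusted p = 0.0335). The size rests on FB control 3, and without FB IR experiment 3 the difference was -1.07 (SE 0.29, adjusted p = 0.0199). The call was lost with the experiment as a block (adjusted p = 0.0722), with only the IR control arrays in the fit (0.241) and without experiment 1, 2 or 3 of every group (0.167, 0.113 and 0.0848). Abcb1a, with no call in any set of controls, differed by 0.47 in the IR controls and by 0.81 (SE 0.47, adjusted p = 0.254) without FB IR experiment 3. For Abcb1b the difference in the UV controls was -0.58 (SE 0.73, limma adjusted p = 0.684) and in the MS controls 0.50 (SE 0.66, adjusted p = 0.669). These SEs come from a spread shared by all control groups, FB control 3 of IR among them. In the MS controls all CM values (75.6, 83.9 and 78.7) lay above all FB values (49.4, 64.0 and 55.6), whereas the UV controls overlap. Ephx2 was lower in CM among the IR controls on rc_AI104882_s_at (-0.55, SE 0.16, adjusted p = 0.0215) and on X65083cds_at (-0.93, SE 0.31, adjusted p = 0.0454). Without FB IR experiment 3 these were -0.69 (adjusted p = 0.00654) and -1.15 (0.0229), and X60328_at passed too, at -0.34 (1.25e-05). X60328_at read 6.88, 6.88 and 7.35 in CM, against 8.85 and 8.98 in FB, at or near the floor. The fit shares its spread with FB UV, CM MS and FB MS controls that all lay at the floor, which makes its SE small (0.028). Nothing is read from the call of X60328_at. The next sentences are on rc_AI104882_s_at and X65083cds_at. Both calls were lost with the experiment as a block (adjusted p = 0.0872 and 0.158), with only the IR control arrays (0.129 and 0.254), without experiment 1 (0.328 and 0.486) and without experiment 2 (0.201 and 0.445). That of X65083cds_at was also lost with arrays only scaled (0.140), with a pseudocount in place of the floor (0.0553) and with a higher floor of 24.5, where its difference was 0. On rc_AI104882_s_at the difference was 0.18 in the UV controls and 0.22 in the MS controls, neither past the threshold.

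**Figure D3:**
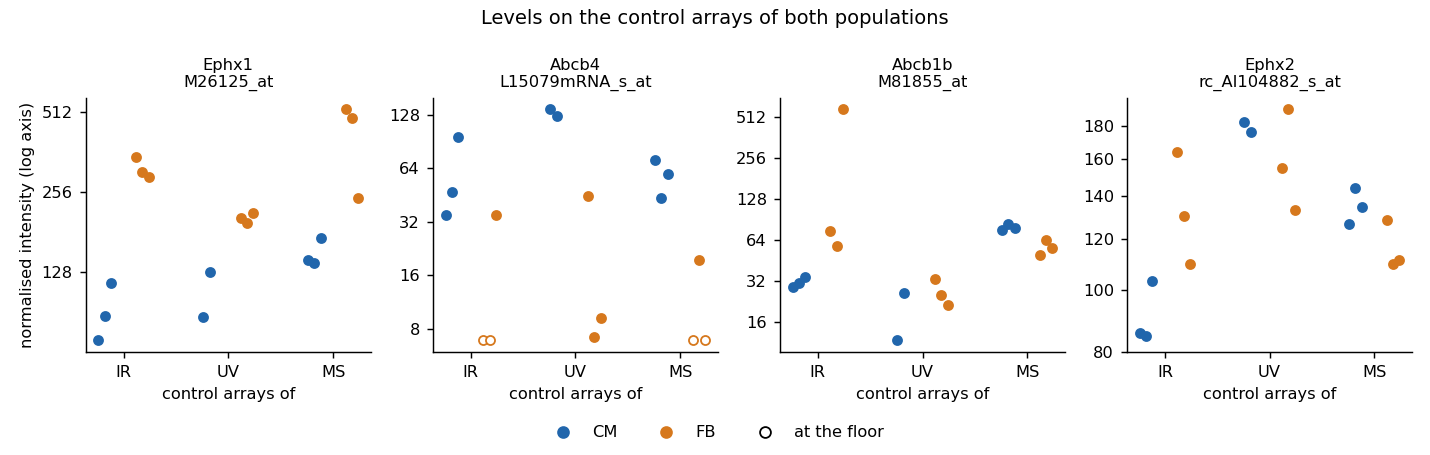
Normalised intensity (log axis, a scale of its own for each gene) on the control arrays of the IR, UV and MS experiments, CM left of FB, with open points for arrays at the floor. Ephx1 is lower on every CM array than on every FB array of the same experiments, Abcb4 is higher on CM arrays apart from an overlap in the IR controls, and Abcb1b in FB control 3 of IR (578) lies far above the rest.

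Lists of ABC transporters, whatever they carry, and of phase I and phase II enzymes, which handle foreign compounds, were counted beside the members. After IR, none of the 18 probe-sets of 12 other ABC transporter genes passed in CM or FB (limma, with 2 and 1 at an unadjusted p under 0.05), and none of the 82 probe-sets of 45 other phase I genes did (11 and 5). Of 66 probe-sets of 33 phase II genes, 1 passed, higher in CM after IR: Gsta1, a glutathione transferase, on K01932_f_at (0.88, SE 0.15, adjusted p = 0.0153). The median change of the ABC list was 0.03 in CM and 0.08 in FB after IR, that of the phase II list 0.06 in CM, and that of all probe-sets was 0. After MS none of these probe-sets passed (between 0 and 4 of a list at an unadjusted p under 0.05).

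After UV, 16.8% of all probe-sets passed in CM and 22.9% in FB, in either direction. Of the 18 probe-sets of ABC transporters, 3 were higher in CM, against 3 higher and 3 lower in FB. In CM all 3 were of Tap1 and Tap2, which encode a peptide pump of antigen presentation and not a drug pump. Tap1 changed by 3.57 (SE 0.26) in CM and 2.74 (SE 0.21) in FB, on X57523_g_at. Tap2 changed by 0.64 (SE 0.15) in CM and 0.88 (SE 0.12) in FB, both called. Abcc1, another drug pump, was lower in FB (-0.96, SE 0.20). Of the phase I probe-sets 4 were higher and 3 lower in CM, and 10 were higher and 5 lower in FB. The aldehyde reductase Akr7a3 (2.02, SE 0.44) and the quinone reductase Nqo1 (1.56, SE 0.29) were higher in CM, and Cyp1b1, a cytochrome P450 that oxidises aromatic compounds, was lower in FB (-2.25, SE 0.27, on U09540_g_at). Of the phase II probe-sets 13 were higher and 1 lower in CM, and 11 were higher and 5 lower in FB, with the glutathione transferase Gstt2 (2.12, SE 0.21) in CM and Gclc, a subunit of the enzyme that starts glutathione synthesis (1.68, SE 0.24), in FB among them. On control arrays 7 of the 18 ABC transporter probe-sets were higher and 2 lower in CM for IR, 6 and 3 for UV, and 5 and 1 for MS. Of all probe-sets 25.2%, 22.5% and 22.5% passed in these sets. Abcc9, the regulatory subunit of a potassium channel of heart muscle, was higher in CM than in FB by 3.53 (IR), 3.15 (UV) and 4.25 (MS) on the log2 scale (limma, adjusted p = 1.34e-04, 7.70e-04 and 8.66e-05).

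Transcription factors reported to act on genes of this kind were counted in the same way. Of 60 probe-sets of 30 such genes none passed after IR (limma, 9 in CM and 3 in FB at an unadjusted p under 0.05) and none after MS (1 and 3). After UV 10 were higher and 2 lower in CM, and 15 were higher and 2 lower in FB. Of all probe-sets 16.8% passed in CM and 22.9% in FB after UV, in either direction. The called factors with the largest changes in CM were Ncoa1, a coactivator of nuclear receptors (2.33, SE 0.56), the heat shock factor Hsf1 (1.61, SE 0.35), Cebpb (1.24, SE 0.39) and the AP-1 subunit Fos (1.08, SE 0.24). In FB they were the AP-1 subunit Jun (2.51, SE 0.38, on X17163cds_s_at), Cebpa (1.87, SE 0.46), Nfya, a subunit of the factor that binds CCAAT (1.34, SE 0.19), and Egr1 (1.33, SE 0.28). Jun and Nfya changed by 0.19 (SE 0.47) and 0.10 (SE 0.23) in CM, and Ncoa1 by -0.96 (SE 0.46) in FB, none past the threshold. The CM change minus the FB change was -2.32 for Jun, -1.24 for Nfya and 3.28 for Ncoa1 (limma, adjusted p = 0.0409, 0.0301 and 0.0196).

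Markers of the DNA damage response and of mitosis were counted in the same comparisons. After IR 0.732% of all probe-sets passed in CM and 0.0801% in FB, in either direction. After IR, 3 of 14 probe-sets of 7 damage response genes were higher in CM and 1 in FB, with Cdkn1a, an inhibitor of the cell cycle (1.73 in CM, SE 0.23, limma adjusted p = 0.00247), and Mdm2, which targets p53 for breakdown (1.08 in CM, adjusted p = 0.00176, and 1.12 in FB, adjusted p = 0.0112). Their summed intensity was 6149 to 6852 in CM after IR, against 3321 to 4417 in the controls, and 6606 to 8051 in FB, against 4269 to 5177. Of 13 probe-sets of 9 mitosis genes 10 fell in CM and 3 in FB after IR, Kifc1, a mitotic motor, by 3.56 (SE 0.35, adjusted p = 4.80e-04) in CM. After UV 6 of the 14 damage response probe-sets were higher in CM and 6 in FB, where 16.8% and 22.9% of all probe-sets passed. Of the 13 mitosis probe-sets 1 was higher and 0 lower in CM after UV, and 1 higher and 0 lower in FB. After MS no damage response probe-set passed in either population (limma, 1 and 0 at an unadjusted p under 0.05), and no mitosis probe-set did. The part of these markers in the changes of Abcb1b and Ephx1 was not tested.

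Markers of the cell types were also counted beside the IR changes. None of the 26 probe-sets of cardiomyocyte markers, 14 of endothelial, 18 of macrophage, 10 of smooth muscle and 12 of neural or Schwann cell markers passed in CM or FB after IR (limma, between 1 and 3 of each list at an unadjusted p under 0.05), and 1 of 31 of fibroblast markers was higher in CM. Of the 9 macrophage marker genes, Csf1r, Cd74 and C1qb lay at the floor on all 6 CM arrays of the IR experiments. The others read above it on at least 1 array of each arm. The sum over all 9 was 474 to 538 in CM after IR, against 379 to 573 in the controls. In CM the summed fibroblast markers lay between 28886 and 31973 after IR, against 24154 to 30126 in the controls, so the groups overlap. After UV 16.8% of all probe-sets passed in CM and 22.9% in FB, in either direction. Of the 26 cardiomyocyte probe-sets, 8 were lower in CM and 20 in FB. Their sum was 52913 to 58201 in CM, against 67799 to 71635 in the controls, and 9014 to 12614 in FB, against 21188 to 25022. Of the 31 fibroblast probe-sets 7 were lower in CM, and 7 lower and 1 higher in FB. Of the 10 smooth muscle probe-sets 5 were lower in CM and 7 in FB. The endothelial, macrophage and neural or Schwann cell lists had 0 to 2 lower in either population, and 3 macrophage probe-sets were higher in FB. The fibroblast sum in FB was 37007 to 42371, against 46060 to 49360. The part of these shifts in the UV values of the pumps and hydrolases was not tested.

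Abcb1b and Ephx1 were followed through the 17 single pairs. After IR and UV both were higher in 11 of 11 pairs, by 0.92 to 4.62 for Abcb1b and by 1.37 to 2.95 for Ephx1, whereas in the 6 MS pairs they lay between -0.36 and 0.19 and between -0.16 and 0.26. The pairs of a stressor sit together, so the correlation is given within stressors. Each value still pools CM and FB pairs, which also differ in size. After UV, Abcb1b changed by 2.15 and 2.84 in the CM pairs, against 3.76 to 4.62 in FB. Ephx1 changed by 1.96 and 2.08 in CM, against 2.80 to 2.95 in FB. No value was computed within a population. Over the 6 IR pairs Pearson was 0.78 and Spearman 0.89, over the 6 MS pairs 0.48 and 0.54, and over the 5 UV pairs, few and partly used to choose the genes, 0.94 and 0.90. Without FB IR experiment 3 only 5 IR pairs remain, and no value was computed over them. Both genes of a pair are read from the same 2 arrays.

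**Figure D4:**
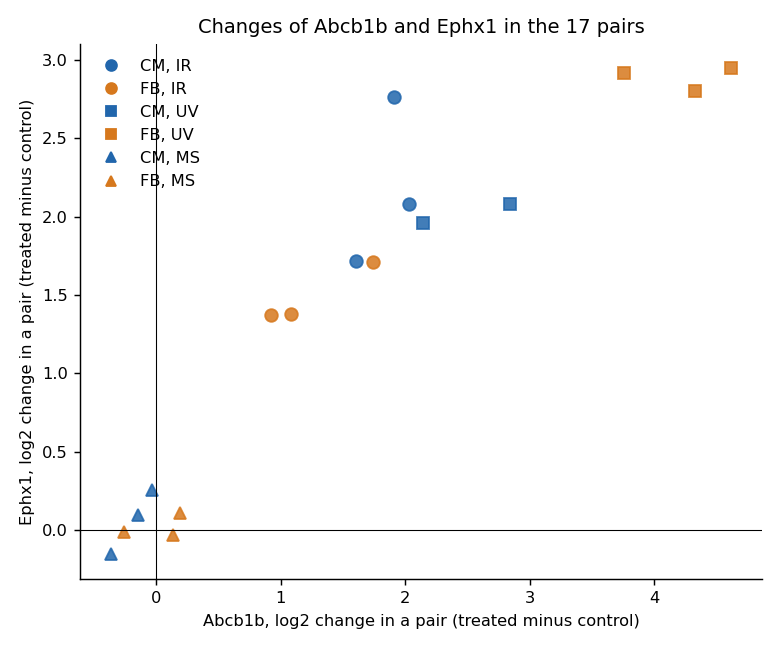
Log2 change of Ephx1 (vertical) against that of Abcb1b (horizontal) in each of the 17 pairs of treated and control arrays, by population (colour) and stressor (shape). The MS pairs lie near 0 for both genes, the IR pairs between 0.92 and 2.03 for Abcb1b, and the FB UV pairs farthest out on both axes.

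The genes whose pair changes were most like those of each member were found among 4060 genes, by Pearson correlation over the 17 pairs. These include the UV pairs used in the choice. As the pairs sit together by stressor, any gene higher after IR and near 0 after MS can correlate highly with Abcb1b and Ephx1. That holds for the 12 pairs without UV too, which are the IR and MS pairs. Apart from Abcb1b with Ephx1, no value was computed within a stressor. For Abcb1b they were Cdkn1a (0.98, and 0.95 over the 12 pairs without UV), Gbp2, an interferon induced GTPase (0.93 and 0.76), Mdm2 (0.93 and 0.90), Ephx1 (0.93 and 0.96) and Suox, sulphite oxidase (0.92 and 0.63). For Ephx1 they were Ccng1, a cyclin G (0.96 and 0.95), Abcb1b, Cdkn1a (0.93 and 0.91), Mdm2 (0.89 and 0.91) and Ech1, an enzyme of fatty acid oxidation (0.84 and 0.69). Cdkn1a, Mdm2 and Ccng1 changed by 1.73, 1.08 and 0.71 in CM after IR (limma, adjusted p = 0.00247, 0.00176 and 0.00176), and by 1.18, 1.12 and 0.53 in FB (adjusted p = 0.0863, 0.0112 and 0.0586). Gbp2, Suox and Ech1 did not pass in either population after IR. The IR pairs took part in picking these genes, so their adjusted p values are not separate evidence.

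For the other members the highest correlation was 0.75 for Abcb1a (Tpcn1, a cation channel), 0.82 for Abcb4 (Crybb1, a lens crystallin) and 0.84 for Ephx2 on rc_AI104882_s_at (Epn2, an adaptor of endocytosis). The size of such a correlation depends on how far a gene moved, so it is not compared between members. All correlations are over the same pairs, which share arrays between genes.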

How the data were processed

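Gene expression was read on 35 Affymetrix rat arrays. Per array, the deposited table gives an intensity on a linear scale for 8799 probe-sets. The authors' own model of probe signals, after gcrma and VSN, is not what the deposited intensity values hold, and the software behind these values is not given in the sources used here. A trimmed mean of about 200.3 on 26 arrays and about 1001.5 on 9 shows that arrays had been scaled. Scan records, deposited for 16 arrays, were used only to tell apart scans and array lots.

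Arrays were scaled to a common 75th percentile, with values under the 20th percentile (6.88) set to it as a floor, then put on the log2 scale and quantile normalised. Between 14.5% and 24.7% of an array lay at the floor, which limits precision for dim probe-sets, as does the number of arrays. Control probe-sets (59) were left out. Symbols come from the array annotation and the rat gene table, and 7006 probe-sets have 1 symbol, 308 several and 1426 none. Tests used limma 3.58.1 under R 4.3.3 (lmFit, then eBayes with trend), two-sided, with Benjamini-Hochberg adjustment over 8740 probe-sets and a threshold of 0.05. Treated and control arrays were fitted together with the numbered experiment as a block, as in the methods of the study. Deviations from group means correlated at 0.0628 to 0.797 within the 17 numbered pairs, over 0.1 in 15. CM UV array 3, with no control, drops out of that fit. Control arrays were fitted alone, without a block. Titles without a number were taken as experiment 1. Cultures came from separate experiments, but the number of animals behind each was not used here.

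The members and lists were chosen with earlier results of these data known, so adjusted p values are not independent evidence for the choice. Named are all member probe-sets, up to 4 genes of a list with the largest called change, and for each member the 5 genes with the highest correlation over pairs, among brightest probe-sets above the floor on at least 50% of arrays. Lists were ABC transporters, phase I and II enzymes, transcription factors, DNA damage response, mitosis and cell type markers. The pipeline was tested on simulated data. Alternatives covered the block, the floor, the normalisation, dim probe-sets, the variance trend, the arrays fitted, scan, lot and leaving out each experiment. Figures were drawn with matplotlib.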

Additional observations from a re-analysis of the deposited data

Results flagged for a closer look

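The UV change of Abcb1b differed between the populations, by -1.74 on the log2 scale (CM change minus FB change, SE 0.30), and that of Ephx1 by -0.87 (SE 0.23). UV values were used to choose the genes, so no p is given. Both were higher after UV in each population, in 2 of 2 CM pairs and 3 of 3 FB pairs. The summed cardiomyocyte markers were also lower after UV in FB (9014 to 12614, against 21188 to 25022 in controls). In CM they were 52913 to 58201, against 67799 to 71635. The summed fibroblast markers were lower too in FB (37007 to 42371, against 46060 to 49360), and overlapped with the controls in CM. The part of these shifts in the difference was not tested.

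The UV-treated CM array that has no control of its own, and so does not enter the CM UV change, read 125 for Abcb1b and 708 for Ephx1. On that array Ephx2 read 36.0 on X60328_g_at and 7.65 on X60328_at. Each of these 4 values lies above both CM UV control arrays, the highest of which read 25.9, 128, 20.3 and 7.27 for the same probe-sets. X60328_at lies close to the floor of 6.88 on these arrays, and on CM UV array 1 it lay at the floor, below both controls. Nothing is read from its value. The scan and lot of CM UV array 3 are known, but not those of the other CM UV arrays. No test for a single array that lies apart was run in groups of this size.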

How the results depend on the processing

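No called difference of a member turned its direction under any alternative, though X65083cds_at in the IR controls was at 0 with the higher floor. The counts of member probe-sets called were within 1.5 times under each setting of normalisation, floor, variance trend, dim probe-sets, scan and lot. Without the replicate block, 1 of the 2 calls stood in CM IR and 1 in FB IR (Ephx1 in both), and 0 of 2 for the UV difference between populations; with the block as a random term these were 2, 1 and 0. With the numbered experiment as a block between control arrays, 0 of 2 stood in UV and 1 of 4 in IR. Fitting only the arrays of a comparison, which leaves few residual degrees of freedom, left 0 calls in CM UV, CM IR, FB IR, the UV controls and the UV difference, and 1 in the IR controls. Leaving out 1 experiment gave 0 to 2 calls in CM IR, 0 to 1 in FB IR (2 without FB IR experiment 3 alone, chosen after seeing the data), 0 to 1 in the UV controls, 1 to 4 in the IR controls (6 without FB IR experiment 3), 0 to 1 in the MS controls and 0 to 1 for the UV difference. The 6 IR control calls without FB IR experiment 3 include X60328_at, which lies at or near the floor there. Except where stated, the cause was not tested. Of 66 single UV values under alternatives, 56 stayed within the SD of pairs and 10 moved further. Of 134 other single values that were called, 89 kept the call and 45 lost it. Of the 89, 6 moved by over 1.5-fold: Abcb4 in the UV controls (3.20) to 2.14 with the higher floor and 2.19 with a pseudocount, Abcb4 in the MS controls (2.55) to 1.22 and 1.51, Abcb1b in the IR controls (-2.11) to -1.07 without FB IR experiment 3, and X65083cds_at in the IR controls (-0.93) to -1.57 without experiment 3 of every group.

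Counts over all probe-sets moved too. CM IR had 64 calls, 37 without the block, 97 with the lot as a block, 0 from its own arrays only and 2 to 22 without 1 experiment. FB IR had 7, 16 with the random block, 18 without dim probe-sets, 31 without FB IR experiment 3, 0 from its own arrays only and 0 to 5 without 1 experiment. CM UV had 1466, 813 without the block, 0 from its own arrays only and 535 to 1058 without 1 experiment, and FB UV 2002, 1200, 429 and 1220 to 1400 under the same settings. The UV difference between populations had 555, against 78 without the block, 307 with the random block, 4 from its own arrays only and 138 to 336 without 1 experiment. The IR difference had 6, against 0, 2, 0 and 0 to 5 under these settings, 3 with arrays only scaled, 20 with the higher floor, 2 with the scan as a block, 60 with the lot as a block and 2 without FB IR experiment 3. The controls had 1966 (UV), 2203 (IR) and 1965 (MS), against 1266 in UV with a block, 1264 in IR from its own arrays only, and 866 to 1660, 1131 to 1797 and 691 to 1253 without 1 experiment. The MS changes and their difference, at 0, reached at most 2 (CM), 6 (FB) and 4. Dim signal limits Abcb1a, Abcb4 and X60328_at, which lie at the floor on 7, 6 and 24 arrays.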
